A study of Mus musculus with 7 samples.

Results

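A set of 5 genes of cytokine signalling was followed in the soleus muscle of mice that lack tenascin-C. They are Il6st and Csf2rb2, which encode receptor subunits, and Il6, Il1b and Csf3, which encode ligands. Each was taken by its gene symbol in the platform annotation and has 1 probe, so they make up 5 of the 205 array probes that carry a gene symbol, beside 18 without one. The genes were chosen by their measured signal over the dimmest probes of each array and by their spread between arrays. Levels, spread and the contrast of receptor subunits with ligands are therefore given as descriptions without a test.

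All 7 samples belong to 1 group, cage-control mice of the 129/SV strain that are deficient in tenascin-C, with no age given. No second genotype or treatment was analysed here, so no value below measures an effect of the missing gene. Soleus is a postural, mostly slow hindlimb muscle, and each sample is RNA from sections of its belly, which hold fibres together with vessels, connective tissue and resident immune cells. In such bulk RNA, fewer cells of a type and less RNA per cell cannot be told apart. The replicates are described as biological, and the replicate numbers used here only name the samples.

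Cytokines of this kind are secreted signals that act through receptor chains on the target cell. Interleukin 6, encoded by Il6, binds the receptor chain encoded by Il6ra and then the signal-transducing subunit gp130, encoded by Il6st, which activates JAK kinases and the transcription factor STAT3. gp130 is shared by the whole IL-6 family, and contracting muscle fibres are known to release interleukin 6. Csf2rb2 encodes a beta chain of the interleukin 3 receptor found in mouse. Il1b encodes interleukin 1 beta, made mainly by activated macrophages, and Csf3 encodes granulocyte colony-stimulating factor, which drives neutrophil production.

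The genes differ in the DNA before their start, and the windows are shown as background. A link between these windows and the array signals was not tested. The 250 bases before the start were taken from RefSeq (GRCm38.p6), where 4 of the 5 genes had a window. Capitals mark matches, on either strand, to TATAAA (the TATA box), to CCAAT (the CCAAT box), to GGGCGG (the GC box), to TTCNNNGAA (a STAT motif), to TGANTCA (an AP-1 motif) and to the NF-kB consensus, and none of the matches overlap. The Il6st window is chr13:112463820-112464069 (+), that of Csf2rb2 is chr15:78305722-78305971 (-), that of Il6 is chr5:30012864-30013113 (+) and that of Il1b is chr2:129371140-129371389 (-).
Il6st: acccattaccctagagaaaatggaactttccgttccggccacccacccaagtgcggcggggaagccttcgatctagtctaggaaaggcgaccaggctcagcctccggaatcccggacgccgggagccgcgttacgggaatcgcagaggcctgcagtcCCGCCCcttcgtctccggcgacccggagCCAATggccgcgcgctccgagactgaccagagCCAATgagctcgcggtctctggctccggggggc
Csf2rb2: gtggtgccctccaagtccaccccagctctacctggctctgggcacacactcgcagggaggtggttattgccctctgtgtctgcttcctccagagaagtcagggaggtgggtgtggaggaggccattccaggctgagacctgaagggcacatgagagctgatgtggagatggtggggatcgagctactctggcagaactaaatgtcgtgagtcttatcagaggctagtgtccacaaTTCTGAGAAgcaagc
Il6: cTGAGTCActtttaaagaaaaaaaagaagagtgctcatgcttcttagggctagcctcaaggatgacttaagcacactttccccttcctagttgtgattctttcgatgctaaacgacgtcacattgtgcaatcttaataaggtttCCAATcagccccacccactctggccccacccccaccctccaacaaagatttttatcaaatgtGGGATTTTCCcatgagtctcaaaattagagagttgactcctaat
Il1b: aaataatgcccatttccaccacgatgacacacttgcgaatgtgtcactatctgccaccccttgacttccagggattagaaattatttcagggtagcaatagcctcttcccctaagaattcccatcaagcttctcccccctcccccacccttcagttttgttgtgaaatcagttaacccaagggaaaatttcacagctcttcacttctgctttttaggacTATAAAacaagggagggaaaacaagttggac

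The Il6st window held 26 CG dinucleotides and had 66% G and C. As many CG dinucleotides were found in 9.59% of the 32851 RefSeq windows of this length, whose median was 6. The windows of Csf2rb2, Il6 and Il1b held 3, 3 and 2. Those of Il6ra, Csf2ra and Csf3r, other receptor chains whose probes stayed below 3 times the floor, held 18, 17 and 6. Il6st had a GC box and 2 CCAAT boxes, which 32.7% and 33.8% of all windows hold at least once. Il6 had an NF-kB match 44 to 35 bases before the start, as did 7.25% of all windows somewhere, beside a CCAAT box and an AP-1 match (6.75% of windows). Il1b had a TATA box 31 to 26 bases before the start (12.4% of windows), and Csf2rb2 a STAT match 15 to 7 bases before it (7.02% of windows). These are letter matches only, and no binding was measured.

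Signals are linear spot intensities that the authors expressed as shares of the array's summed signal, given here in percent and recorded in steps of 0.01% with 1 exception among all values. Each array's floor was set at the 10th percentile of its probes, and readings more than 3 times as high were termed clearly above it. Floors ran from 0.04% to 0.15%, and between 60 and 98 probes per array lay within 1 recording step of the floor. Primers and probes differ in labelling, so the height of one probe over the floor does not compare transcript numbers with another. The probe of the targeted gene Tnc read 0.08% to 0.18%, which was clearly above the floor on 0 of the 7 arrays and at most 3 times it. Where this probe lies relative to the deleted part is not stated, and without a mouse that carries the gene the reading cannot be called low. The slow-fibre markers Myh7 and Mb summed to between 15.2% and 22% on 6 arrays, and to 0.67% in replicate 3. Replicate 3 thus stood apart from the muscle profile of the others, and values are given with and without it. Replicates 1 and 2 agreed within 1 recording step on 153 probes and may not be independent. On these arrays 98 and 88 probes lay within 1 step of the floor, so this count alone cannot settle the question.

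**Figure D1:**
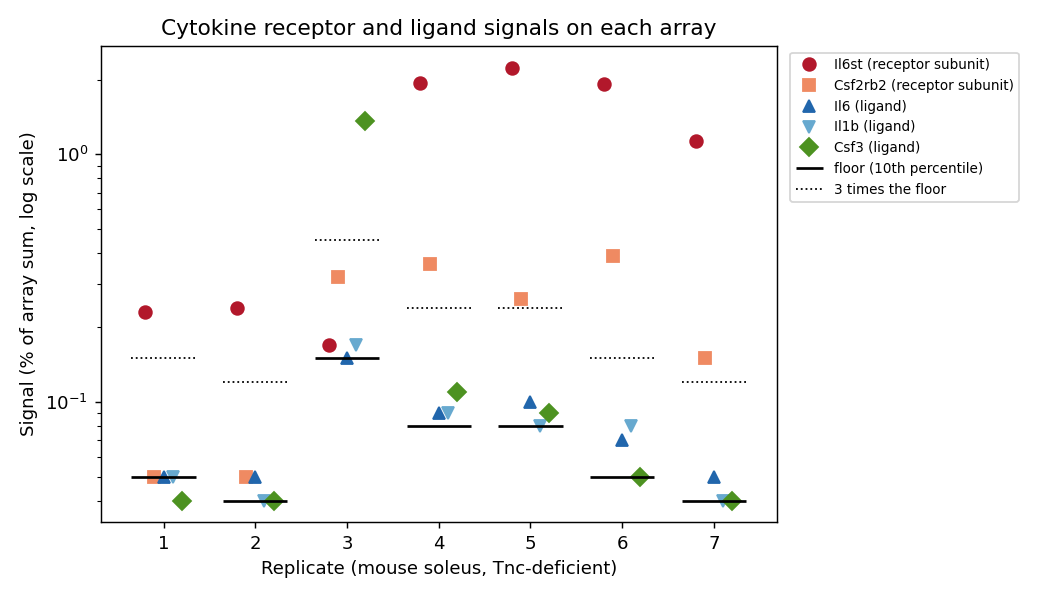
Signal of the 5 cytokine genes (percent of the array sum, log scale) on each of the 7 arrays, with receptor subunits as circles and squares and ligands as triangles and diamonds. Solid bars mark each array's floor and dotted bars 3 times that floor. Il6st lies above the dotted bar on every array except replicate 3, where Csf3 is the only one of the 5 above it.

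Il6st was the one gene of the 5 that was clearly above the floor on all 6 arrays other than replicate 3. It read 0.23%, 0.24%, 0.17%, 1.94%, 2.24%, 1.93% and 1.13% of the array sum in replicates 1 to 7. Replicates 4 to 7 were high, replicates 1 and 2 low, and these 2 sets of arrays did not overlap. The same split was seen for the growth factor genes Igf2 (0.17% against at least 0.7%) and Egf (0.06% against at least 0.1%). The sets overlapped for Il6, which read 0.05% in replicates 1, 2 and 7. Dimmer probes split in the same way, such as Igfbp2 (0.04% against at least 0.08%) and Lamb2 (0.09% against at least 0.12%). The split was thus not particular to Il6st. Its share among all probes was not counted, so the lack of overlap is not read as a trait of Il6st. Relative to the floor, the signal of Il6st was 4.6-fold and 6-fold in replicates 1 and 2 and 1.13-fold in replicate 3. Replicates 4 to 7 gave 24.3-fold to 38.6-fold. In replicates 4 to 7 it ranked between 9th and 18th of all probes from the brightest, in replicates 1 and 2 at 40th and 39th, and in replicate 3 at 124th. The mean was 1.13% ± 0.92 (SD, n = 7), and 1.29% ± 0.89 (SD, n = 6) without replicate 3. Of all probes, 17% were clearly above the floor on these 6 arrays, so the count of 1 in 5 genes lay near the background.

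Csf2rb2, the other receptor subunit, was clearly above the floor in replicates 4 to 7 only. It read 0.05%, 0.05%, 0.32%, 0.36%, 0.26%, 0.39% and 0.15% in replicates 1 to 7. Replicates 1 and 2 were at or 1 step above their floor, while replicates 4 to 7 were 3.25-fold to 7.8-fold over theirs. The reading of 0.32% in replicate 3 was 2.13-fold over the higher floor of that array. The mean was 0.226% ± 0.143 (SD, n = 7). Csf2rb2 has a close paralog, Csf2rb, which encodes the beta chain shared by the receptors for GM-CSF, interleukin 3 and interleukin 5, and no other protein-coding gene lies between them in RefSeq. The Csf2rb probe read 0.05% to 0.15% on the 6 arrays and 0.34% in replicate 3, never more than 2.4-fold over the floor. No source used here says whether either probe also takes up cDNA of the other gene, so both readings are uncertain.

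The ligand Il6 stayed at the floor on every array. It read 0.05%, 0.05%, 0.15%, 0.09%, 0.1%, 0.07% and 0.05% in replicates 1 to 7, which is 1-fold to 1.4-fold over the floor and at most 2 recording steps above it. Il1b read 0.05%, 0.04%, 0.17%, 0.09%, 0.08%, 0.08% and 0.04%, or 1-fold to 1.6-fold over the floor. Both were highest in replicate 3, where the floor was highest. The means were 0.080% ± 0.037 for Il6 and 0.079% ± 0.045 for Il1b (SD, n = 7). At this recording step and with no blank probe identified, the level of either transcript was not detectable, which differs from a transcript that is absent.

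Csf3 was at the floor on 6 arrays and bright on 1. It read 0.04%, 0.04%, 1.36%, 0.11%, 0.09%, 0.05% and 0.04% in replicates 1 to 7. The reading in replicate 3 was 9.07-fold over the floor and ranked 10th of all probes, while the other 6 lay between 0.8-fold and 1.38-fold. The mean was 0.247% ± 0.492 over all arrays (SD, n = 7) and 0.062% ± 0.031 without replicate 3 (SD, n = 6). In replicate 3, 13% of all probes were clearly above the floor, and Csf3 was the only one of the 5 genes among them. That array also had 0.37% for 28S rRNA and 0.35% for Myh7, and the part of that departure in the Csf3 reading was not tested.

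The receptor subunits were then set beside the ligands, each relative to the floor of its own array. Of 14 receptor readings 10 were clearly above the floor, against 1 of 21 ligand readings, and without replicate 3 these were 10 of 12 against 0 of 18. Over all probes, 23.7% of readings passed the same bound on the 7 arrays and 25.5% without replicate 3. No gene of either kind was clearly above the floor on all 7 arrays, as were 4.04% of all probes. On the log2 scale, the mean height over the floor was 2.47 ± 1.37 for the receptor subunits and 0.29 ± 0.40 for the ligands (SD, n = 7). Receptor subunits minus ligands gave 1.21, 1.35, -0.48, 3.12, 3.09, 3.73 and 3.26 in replicates 1 to 7, with a mean of 2.18 ± 1.53 (SD, n = 7) and 2.62 ± 1.07 (SD, n = 6) without replicate 3. The difference was above 0 on 6 of 7 arrays and below 0 in replicate 3, where Il6st was near the floor and Csf3 was bright. Most of it came from Il6st, which exceeded the ligand mean by 3.89 ± 1.18 without replicate 3, against 1.36 ± 0.99 for Csf2rb2 (SD, n = 6). In replicates 1 and 2 only Il6st was above every ligand, since Csf2rb2 read there no higher than Il6. Without replicate 3, the order by mean log2 height over the floor was Il6st (4.05 ± 1.31), Csf2rb2 (1.51 ± 1.13), Il6 (0.27 ± 0.17), Il1b (0.14 ± 0.27) and Csf3 (0.05 ± 0.26; SD, n = 6). The 3 ligands all lay within 3 recording steps of the floor on these arrays, so their order is not interpreted. Csf2rb2 overlapped with them through replicates 1 and 2.

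**Figure D2:**
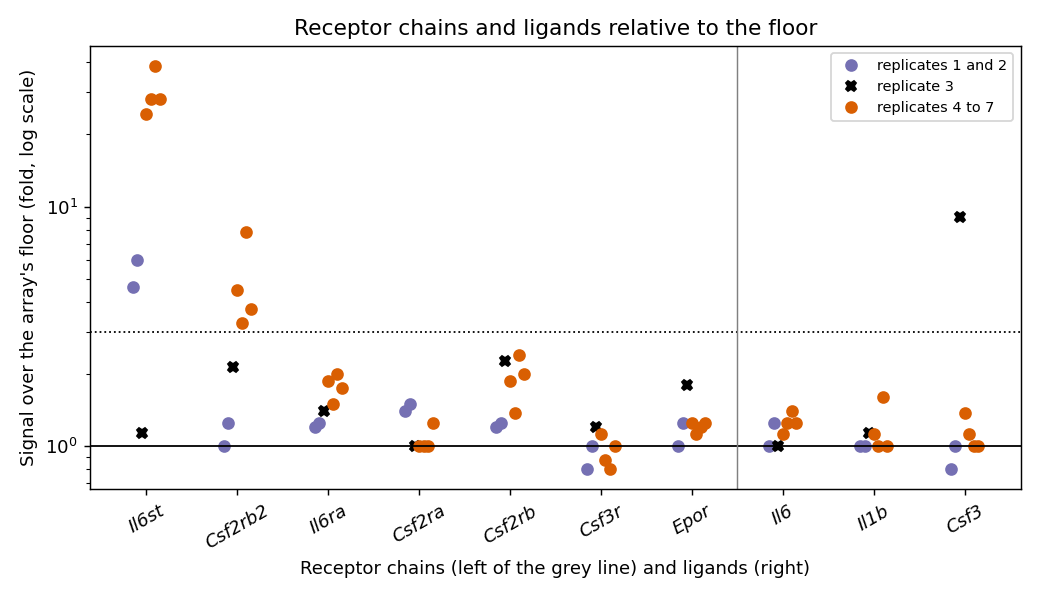
Signal over the array's floor (fold, log scale) for the 2 receptor subunits, for 5 further cytokine receptor chains and, right of the grey line, for the 3 ligands, 1 point per array. The solid line is the floor and the dotted line 3 times the floor; Il6st and Csf2rb2 are the receptor chains with points above the dotted line, and Csf3 in replicate 3 is the only ligand point there.

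The array carries few other genes of these pathways. Of 13 further genes listed for the IL-6 family, 1 had a probe. This was Il6ra, the chain that binds interleukin 6 before gp130, at 0.092% ± 0.039 (SD, n = 6) without replicate 3 and 0.21% in replicate 3. On these 6 arrays Il6ra stayed 1.2-fold to 2-fold over the floor. Of 14 further genes of the colony-stimulating factor and interleukin 3 group, 4 had a probe, and these were clearly above the floor on 0 arrays. Beside Csf2rb they were Csf2ra, the GM-CSF receptor alpha chain, at 0.065% ± 0.014, Csf3r, the receptor of Csf3, at 0.053% ± 0.022, and Epor, the erythropoietin receptor, at 0.067% ± 0.023 (SD, n = 6). In replicate 3, where Csf3 read 1.36%, Csf3r read 0.18%, or 1.2-fold over the floor. No gene of the lists for JAK-STAT transduction or for the interleukin 1, TNF and chemokine families had a further probe, of 18 and 22 genes listed.

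Probes for genes that cytokines induce were few, and their median height was lower than that of all probes. Whether this differs beyond the spread of so few probes was not tested. Of 22 listed genes of the NF-kB and MAPK pathways and their targets, 5 had a probe, 0 were clearly above the floor on all 6 arrays and 3 were so on none of them, as were 62.8% of all probes. Jun, a subunit of AP-1, read 0.165% ± 0.070 and was clearly above the floor on 3 of the 6 arrays. Nos2, the inducible nitric oxide synthase, read 0.118% ± 0.086 and was so on 1. Junb, another AP-1 subunit, Hmox1, heme oxygenase 1, and Vcam1, an adhesion molecule of activated endothelium, read 0.057% ± 0.019, 0.070% ± 0.017 and 0.058% ± 0.021 (SD, n = 6). The median height over the floor of these 5 probes was 0.33 on the log2 scale, against 0.70 for all probes on the array.

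Receptors and ligands of other growth factor families are described by their medians. These are not set against the receptor and ligand difference above, which is a difference of means in genes chosen by their signal. Of 15 probes for other receptors, 0 were clearly above the floor on all 6 arrays and 11 on none, and their median height over the floor was 0.96 (log2). Of 17 probes for other ligands, 1 was so on all 6, Igf2, and 9 on none, with a median of 0.86. Over all probes 17% were so on all 6 arrays and 62.8% on none. The brightest of these receptors without replicate 3 was Fgfr2, a fibroblast growth factor receptor, at 0.275% ± 0.097 (SD, n = 6), and the brightest ligand Igf2, insulin-like growth factor 2, at 1.08% ± 0.90 (SD, n = 6). Whether these medians differ was not tested.

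Markers of the cells that could hold the cytokine transcripts were few. The leukocyte list had 1 probe of 19 genes, Csf3r, whose reading at the floor is given above. Of the endothelial list 5 of 8 had a probe, with a summed signal of 0.45% to 1.27% on 6 arrays and 9.5% in replicate 3, most of it Pecam1 at 8.36%. The satellite cell and myoblast list had 3 probes, which summed to 0.13% to 0.31% and to 3.42% in replicate 3, most of it Myod1 at 3.11%. The fibroblast list had 3 probes with a sum of 0.24% to 0.34% and 0.49% in replicate 3, and the adipocyte list 2 probes with 0.39% to 0.71% and 0.34%. In replicate 3, with its higher floor, these fibroblast probes were only 1.07-fold to 1.13-fold over it. Fabp4 of the adipocyte list was 1.2-fold over it there, against 4.75-fold to 16.5-fold on the 6 arrays. Lipe, the other probe of that list, was 0.8-fold to 1.4-fold over the floor on the 6 arrays and 1.07-fold in replicate 3. The adipocyte sum thus rested on Fabp4 alone. The sums that were high on the array with high Csf3 thus rested on a few probes, Pecam1 and Cdh5 (4-fold over the floor) for endothelium and Myod1 for myoblasts. The other probes of these lists were near the floor there, with Flt1 at 1.47-fold, Kdr and Tek at 1.07-fold, Myog at 1.07-fold and Myf5 at 1-fold. Their part in the Csf3 reading was not tested.

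Il6st and Csf2rb2 varied widely between arrays, and the SDs of the ligands Il6 and Il1b were smaller. Both ligands lay at the floor on every array, so their SDs do not measure a spread of transcripts. Without replicate 3, the SD of log2 signal was 1.54 for Il6st and 1.35 for Csf2rb2, the 4th and 7th largest of all probes. It was 0.66 for Csf3, 0.54 for Il1b and 0.46 for Il6. An SD over 1 was reached by 5.83% of all probes on these 6 arrays, Il6st and Csf2rb2 among them. Over all 7 arrays the SDs were 1.67, 1.30, 0.62, 0.75 and 1.84 for Il6st, Csf2rb2, Il6, Il1b and Csf3, and 23.3% of all probes exceeded 1. The large SD of Csf3 thus rested on replicate 3. Among replicates 4 to 7 alone, Il6st ran from 1.13% to 2.24% with an SD of 0.43 (log2), and 43.9% of all probes had a larger one, so its spread lay mainly between these arrays and replicates 1 and 2. Csf2rb2 had an SD of 0.63 among replicates 4 to 7, with 11.2% of all probes above it. Csf3, at 1-fold to 1.38-fold over the floor on these arrays, had a larger SD of 0.69, with 6.28% above it. An SD of this size was thus also reached by a probe at the floor.

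**Figure D3:**
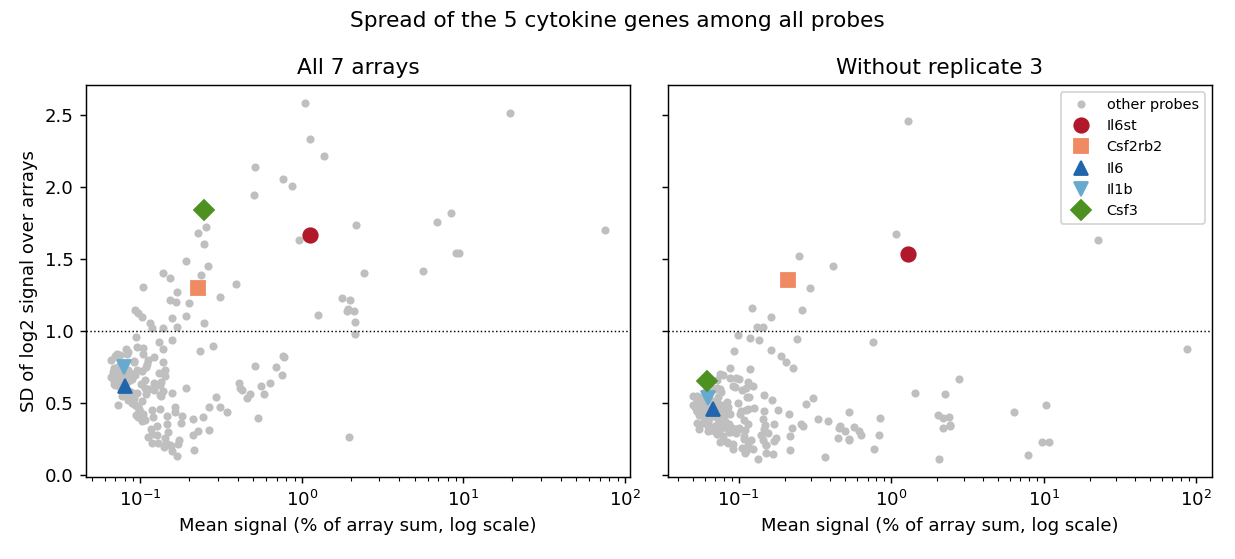
SD of the log2 signal against the mean signal (percent of the array sum, log scale) for all probes, over 7 arrays on the left and without replicate 3 on the right; the dotted line marks an SD of 1. Il6st and Csf2rb2 stay above the line in both panels, whereas Csf3 falls below it without replicate 3.

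The signal of the 28S rRNA probe, Rn28s1, separated the same arrays. Its signal was 3.48% and 3.79% for replicates 1 and 2 and 0.37% for replicate 3. Replicates 4 to 7 gave 49.7%, 27.9%, 26.6% and 24.1%. This probe lies outside the array sum. As a share of the 28S signal, Il6st was 6.61%, 6.33%, 3.90%, 8.03%, 7.27% and 4.68% in replicates 1, 2, 4, 5, 6 and 7, while its own signal differed 9.74-fold between the highest and the lowest of these arrays. The SD of the log2 ratio to 28S was 0.40, against 1.54 for Il6st itself. Csf2rb2 was 0.62% to 1.47% of the 28S signal on the same arrays, with an SD of 0.54 against 1.35. Dividing by 28S raised the SD of the ligands, to 1.33 for Il6, 1.32 for Il1b and 1.25 for Csf3. A lower SD after division was found for 7.66% of the 222 other probes, in all 17 probes of which 16 are named. By the size of the remaining SD, Igf2 (0.37) came before Il6st and was followed by Ccna1 (0.51), Angpt2 (0.53), Csf2rb2 and Ang (0.56). This division was chosen after the values were seen. In replicate 3, Il6st and Csf2rb2 were 45.9% and 86.5% of the low 28S signal, larger shares than on any other array. With that array included, the SD of the ratio was 1.17 for Il6st, against 1.67 undivided, and 2.47 for Csf2rb2, against 1.30 undivided. For Csf2rb2 the lower SD after division therefore held only without replicate 3. What the 28S signal and these probes have in common was not tested.

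**Figure D4:**
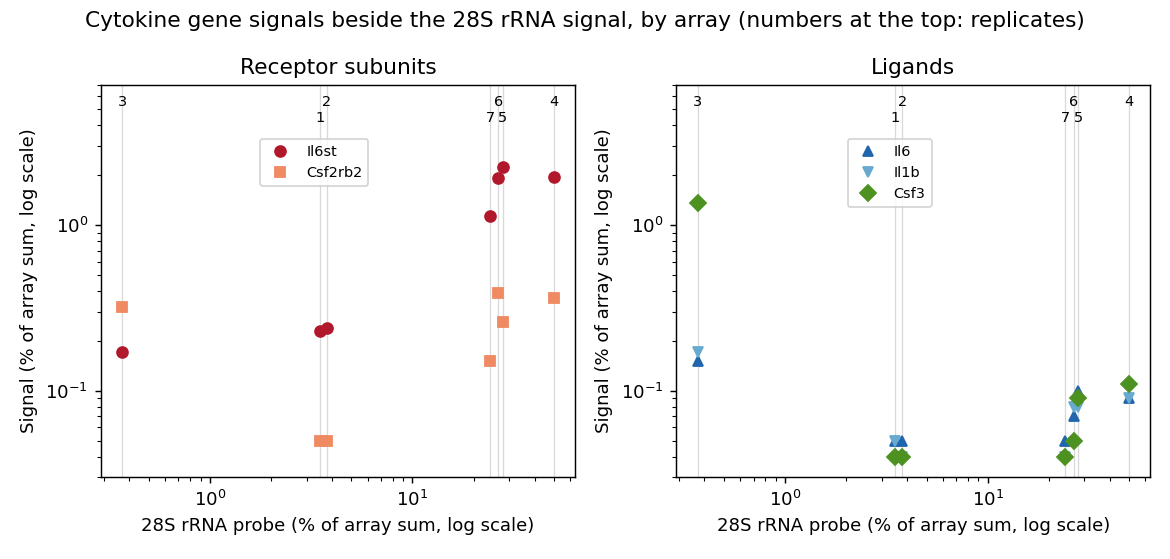
Signal of the receptor subunits (left) and the ligands (right) against the 28S rRNA signal of the same array (both as percent of the array sum, log scales), 1 point per array, with replicate numbers at the top. Il6st and Csf2rb2 are higher in replicates 4 to 7, where 28S is 24.1% to 49.7%, than in replicates 1 and 2, while Il6 and Il1b stay between 0.04% and 0.1% on these arrays.

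The probes whose pattern was most like that of each gene were ranked by Pearson's r of log2 signals across the 6 arrays other than replicate 3, as a description of these arrays. For Il6st they were Igf2 (r = 0.974), Csf2rb2 (r = 0.974), Igfbp2, an IGF-binding protein (r = 0.971), Egf, epidermal growth factor (r = 0.971), and Rn28s1 (r = 0.970). For Csf2rb2 they were Egf (r = 0.999), Igf2 (r = 0.992), Ccna1, cyclin A1 (r = 0.990), Rb1, the retinoblastoma protein (r = 0.985), and Lamb2, a laminin chain (r = 0.984). The median r with all named probes was 0.704 for Il6st and 0.706 for Csf2rb2, and the 6 points share the gap between replicates 1 and 2 and replicates 4 to 7. With each array centred on its median, the r without replicate 3 ran from 0.843 to 0.977 for the probes named beside Il6st and from 0.847 to 0.986 for those beside Csf2rb2. With replicate 3 included, the r of Il6st was 0.954 with Igf2 and 0.921 with Rn28s1, but 0.612 with Csf2rb2, 0.479 with Igfbp2 and 0.490 with Egf. Egf ran from 0.06% to 0.15% and Igfbp2 from 0.04% to 0.16% on the 6 arrays, so this likeness includes readings near the floor.

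The probes most like the ligands were themselves dim. For Il6 they were 1 of the 2 Fn1 probes, Ccnd1, Gpr182, Hif1a and Tek, with r from 0.987 to 0.995. For Il1b they were Fgfr1, Agtr2, Pola1, Nos3 and Lamb3 (r = 0.957 to 0.980), and for Csf3 they were Rpsa, Epor, Itga2, Pgf and Hif1a (r = 0.984 to 0.999). The readings of these probes lay between 0.04% and 0.14% on the 6 arrays, and the median r with all named probes was already 0.801 for Il6, 0.782 for Il1b and 0.817 for Csf3. Il6 and Il1b had r = 0.912 with each other, and Il6 and Csf3 r = 0.944. The ligands themselves lay within 3 recording steps of the floor on these arrays, so the values rest on a few steps. With each array centred on its median, r ran from 0.380 to 0.967 for the probes named beside Il6, from 0.427 to 0.869 for Il1b and from -0.065 to 0.919 for Csf3. The likeness of Hif1a to Csf3 (r = 0.984 as deposited) was the one that turned in sign, so this order of likeness depends on the scaling.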

How the data were processed

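RNA of soleus muscle from 7 tenascin-C-deficient mice was reverse transcribed from 4 µg with gene-specific primers and a radioactive nucleotide and hybridised to a 1-channel array, per the labels' protocols. The deposited values are linear intensities, 1 per probe. Without 2 probes (28S rRNA and 1 unnamed) each array sums to between 0.998 and 1.00, so the authors' intensities are shares of that sum. They were multiplied by 100 and used with no further scaling. No source used here names the scanner, the background treatment or the software. Intensities carry no depth, and the number of arrays limits the precision.

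Probes were named through the platform annotation (205 with 1 symbol, 18 with none, 0 with several), and the identifiers of all 5 genes matched the RefSeq table. The members, gene lists and tests were chosen with earlier results of these data known. Named are the 5 genes, the 5 probes most like each by Pearson's r without replicate 3, the listed cytokine genes with a probe, the brightest gene of the growth factor lists, Tnc and the 28S rRNA probe. Ccna1, Angpt2 and Ang, the endothelial and myoblast markers, Fabp4 and Lipe in replicate 3, and the division by 28S were chosen after their values were seen. Alternatives were the floor's percentile (5th, 25th), its multiple (2, 5), a pseudocount of 0.05%, a filter on dim probes (168 kept), centring on array medians, quantile normalization and leaving out replicates or the 2 probes outside the sum. The procedures were tested on simulated data. Those had no recording step, no floor made to differ between arrays and no array like replicate 3, so the test does not cover these features. Python 3.11.15, pandas 2.3.3, R 4.3.3 and limma 3.58.1 were used.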

Additional observations from a re-analysis of the deposited data

Results flagged for a closer look

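Csf3 is listed because 1 of its 7 log2 signals lay far from the others, at 1.36% in replicate 3. The gap between replicate 3 and the next array was 0.713 of the whole range, wider than the bound used to list such values among 7 samples. The gene was chosen partly for its spread over these same arrays, so the gap is a description and not a test. For Il6 and Il1b replicate 3 was also the highest array, with gaps of 0.369 and 0.440, which did not reach the bound.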

How the results depend on the processing

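Of 164 recomputed values, 145 stayed within 1 SD of the main value (levels and differences) or within 1.5 times it (shares and spreads), and 19 moved further. For levels and differences, leaving out 1 replicate cannot move the mean by 1 SD, so these values were bound to stay. Leaving out the 2 probes outside the sum changed no value. The count of 145 is therefore not a measure of stability. Receptor subunits minus ligands stayed above 0 under all alternatives run, from 1.69 with the pseudocount to 2.62 without replicate 3 (log2). With the floor at the 25th percentile the mean log2 height of Il6 over the floor was 0.040, since the floor itself was higher, and at 5 times the floor 20% of the 35 readings passed, against 31.4% at 3 times. The SD of log2 signal of Il6 was 0.18 centred on the array median, 0.14 after quantile normalization and 0.38 with the pseudocount; that of Il1b was 0.30, 0.20 and 0.46. With replicate 3 left out as well, centring gave 0.18 for Il6, 0.25 for Il1b and 0.34 for Csf3, and quantile normalization 0.12, 0.18 and 0.19. Division by 28S rRNA, added after seeing the data, gave 0.40 for Il6st, 0.54 for Csf2rb2, 1.33 for Il6 and 1.32 for Il1b. The same division over all 7 arrays gave 1.17 for Il6st and 2.47 for Csf2rb2. Leaving out 1 replicate in turn gave an SD of 0.66 to 2.01 for Csf3, the lowest without replicate 3, and 1.54 to 1.80 for Il6st. Averaging replicates 1 and 2 as 1 array, also added later, moved no value past these bounds. The filter removed Il6 and Il1b, which then have no value. Readings near the floor are limited by the recording step of 0.01%, and no detection flag was available. No paired analysis was possible because the series has 1 group.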
